A study of Mus musculus with 7 samples.

Results

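The 2 libraries described here came from primary mouse spinal cord cultures given an empty control lentivirus, and they are 2 of the 7 libraries of a series on the motor neuron microRNA miR-218 and amyotrophic lateral sclerosis (ALS). They were chosen by their titles, which name the vector pUltra and the control virus, and only their raw gene counts were used. The other libraries were 3 given a virus that overexpresses miR-218 (OE) and 2 given a virus that knocks it down (KD), and no comparison with them was made. Every culture was prepared from C57BL/6 embryos at E13.5 (the protocol text also names a rat stage): cords were dissociated with papain, cells were separated over an Optiprep density gradient, and the cells were grown on laminin and poly-ornithine in Neurobasal medium with B27, 2% horse serum, CNTF and GDNF. Fluorodeoxyuridine, a nucleoside that blocks dividing cells, was added after 5 days. The sources used here do not give the day of harvest or the number of embryos or cultures behind a library, so the spread between the 2 libraries may be technical. The labels call the cells primary embryonic motor neurons.

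The ventral embryonic cord holds motor neurons, which release acetylcholine and send axons to muscle, beside excitatory and inhibitory interneurons and radial glia. Motor neurons are specified by the transcription factors Mnx1, Isl1 and Lhx3 and are recognised later by Chat, which makes acetylcholine, and Slc18a3, which loads it into vesicles. Motor neurons are larger and less dense than most cord cells, which is the basis of gradient purification. In bulk RNA fewer cells of a type and less RNA per cell cannot be told apart.

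The cultures expressed neuronal genes at high levels, with little RNA of the genes that define motor neurons. Mnx1 had 0 counts in control 1 and 0 in control 2, which allows up to 1.43 and 1.88 counts per 1000000 counts of the library (CPM; this limit is 3 counts and covers counting error only). For Mnx1 the exact 95% Poisson interval, as used for the next genes, reached 1.76 CPM in control 1 and 2.32 CPM in control 2. Isl1 had 11 and 7 counts, or 5.24 CPM (exact 95% Poisson interval 2.62 to 9.37) and 4.40 CPM (1.77 to 9.06). Chat had 5 and 2 counts, or 2.38 CPM (0.773 to 5.56) and 1.26 CPM (0.152 to 4.54). These were the lowest of the 9 markers chosen for the cultures, and the 2 libraries overlapped within their intervals for Isl1 and Chat. Nefm, the medium neurofilament subunit of axons, had 436 CPM in control 1 and 338 CPM in control 2 (387 ± 69.5, SD, n = 2). Slc17a6, which loads glutamate into vesicles, had 421 and 384 CPM (403 ± 26.6), and Gad1, which makes GABA, had 203 and 192 CPM (198 ± 7.53). Fabp7, a fatty acid binding protein of radial glia, had 1218 and 1033 CPM (1126 ± 131), and Vim, the intermediate filament of radial glia and mesenchyme, 986 and 836 CPM (911 ± 106). Acta2, smooth muscle actin, had 95.3 and 94.2 CPM (94.7 ± 0.72). The markers other than Mnx1, Isl1 and Chat thus stood well above them in each library. Exons of Nefm overlap Nefl exons on the other strand in the annotation used, and the strand setting of the counting is not given, so reads of that pair may be mixed. None of the other 8 markers had such an overlap.

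**Figure D1:**
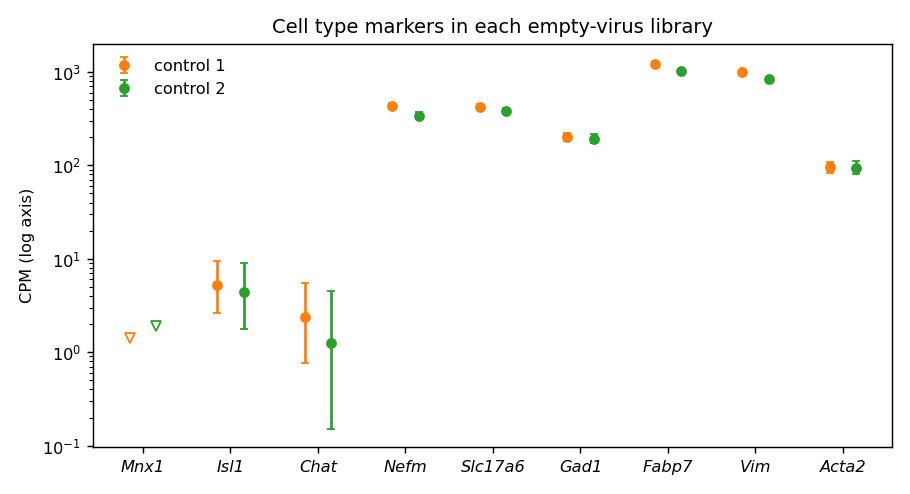
Level of the 9 markers in control 1 (left of each pair) and control 2, in CPM on a log axis, with exact 95% Poisson intervals. Mnx1 had 0 counts, and its open triangles mark the limit of 3 counts (1.43 and 1.88 CPM). Isl1 and Chat lay under 10 CPM and the 6 markers to their right between 94.2 and 1218 CPM.

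The library totals were 2099714 counts in control 1 and 1591812 counts in control 2, so 1 count was worth 0.476 and 0.628 CPM. Of 23366 genes in the table, 14171 had a count in control 1, 13700 in control 2 and 12996 in both. A gene was taken as expressed at 5 CPM or more in both libraries, which is 10.5 counts in control 1 and 7.96 in control 2. By this rule 9824 genes (42.0%) were expressed, 2044 of them at 100 CPM or more in both libraries and 89 at 1000 CPM or more. The 50 most abundant genes took 14.1% of the counts in control 1 and 13.9% in control 2, and the 1000 most abundant took 55.1% and 55.0%. A count of 0 did not show that a gene was silent. Of 199 table entries of the ribosome, the proteasome, respiratory complex I, ATP synthase, RNA polymerase II and translation factor eIF3, 184 (92.5%) were expressed, while 9 had 0 counts, among them the genes of widely used proteins Rpl26, Rpl30, Rpl34, Rps27, Ndufs5 and Polr2a. Hnrnpa1, an abundant RNA-binding protein in most cells, also had 0 counts. Only uniquely mapped reads were counted. Gapdh, which has many processed copies in the mouse genome, had 181 and 151 counts (86.2 and 94.9 CPM). Actb had 2095 and 1830 counts, and Ppia had 3047 and 2196. Whether copies elsewhere in the genome lowered any of these counts was not tested.

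The 2 libraries ranked genes alike but differed by more than counting error. Over the 11612 genes with 10 or more counts in the 2 libraries together, log2(CPM + 1) correlated across genes at 0.951 (Pearson) and 0.959 (Spearman). Genes of 1 sample are not independent replicates, so no p is given. The median log2 ratio of control 1 over control 2 was -0.01, with an SD of 0.71 across genes, and 74.7% of genes lay within 1.5-fold. The squared deviation between the libraries averaged 3.25 times the counting variance, so neither library was taken for a copy of the other, and the biological coefficient of variation from edgeR's common dispersion was 15.4%. An exact conditional binomial test, which compares these libraries and not conditions, called 792 genes (6.82%) at an adjusted p under 0.05 and a fold over 1.5. Of these, 442 (3.81%) were higher in control 1 and 350 (3.01%) lower. Its p-values cover counting error only, and since the spread between the libraries was larger than that, they are too small as a measure of difference between cultures. A called gene is one that differed between these 2 libraries by more than counting error. With more counts the libraries came closer: 38.2% of genes with 10 to 19 counts in all lay within 1.5-fold, against 92.6% of those with 200 to 499 and 99.7% of those with 1000 or more.

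**Figure D2:**
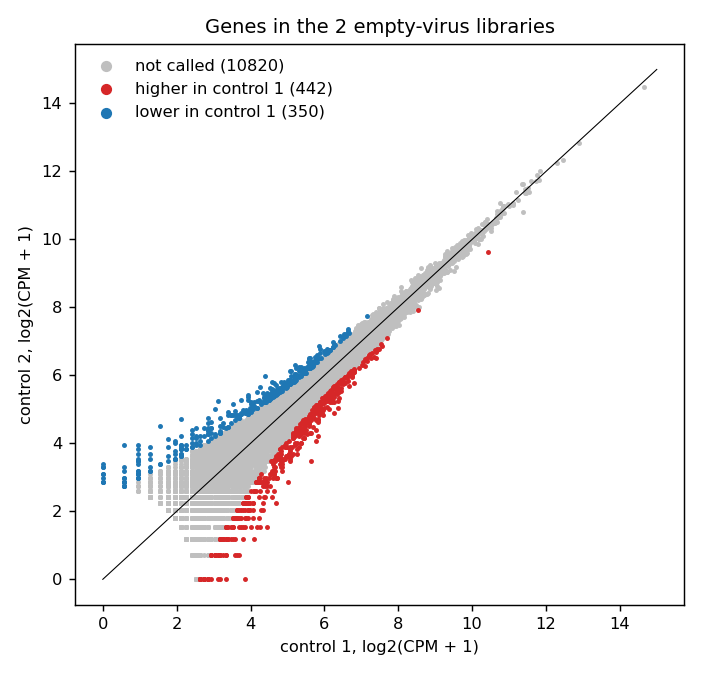
Each of 11612 genes by its level in control 1 (horizontal) and control 2 (vertical), both as log2(CPM + 1), with the line of equal level. The 442 genes called higher in control 1 (red) and the 350 called lower (blue) lie mostly at low and middle levels. Most genes at the top stay close to the line. Exceptions include Malat1, a nuclear RNA, at 1385 and 792 CPM, and Rn45s, at 2657 and 1785 CPM and not called.

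Counts depended little on transcript length. The longest annotated transcript was known for 98.6% of the tested genes, and its length correlated with mean CPM at a Spearman rho of 0.0689 across 11450 genes, given as a description. The median level was 28.4, 25.3, 25.6, 28.3 and 28.7 CPM in the 5 shorter sixths of the genes and 42.5 CPM in the longest sixth. Divided by length, the medians ran the other way, at 25.6 CPM per kilobase in the shortest sixth and 5.68 in the longest. The sources used here do not say whether reads covered whole transcripts or their ends. CPM was thus nearly free of length, and division by length adds a trend of its own. Levels are given in CPM, with the level per kilobase beside them for leading genes.

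**Figure D3:**
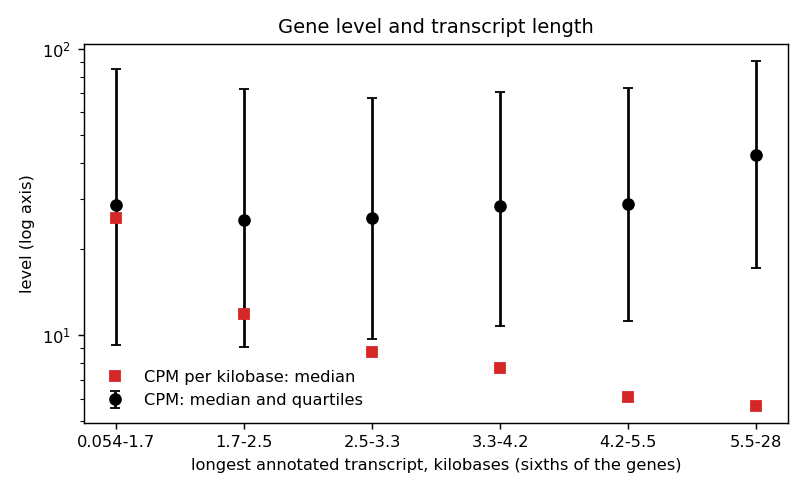
Median mean CPM (circles, with quartiles) and median CPM per kilobase (squares) in sixths of the tested genes ordered by transcript length, on a log axis. The CPM medians lie between 25.3 and 42.5, while the medians per kilobase run down to 5.68.

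Growth-cone cytoskeleton genes led the transcriptome. Tuba1a, the main alpha-tubulin of young neurons, had 25657 CPM in control 1 and 22861 CPM in control 2, or 2.57% and 2.29% of all counts, and ranked highest on both scales. The beta-tubulin Tubb2b had 7655 and 7387 CPM, and the actin-sequestering peptide gene Tmsb4x had 5646 and 5168 CPM. Lower ranks among the 20 were held by genes such as the translation factor Eef1a1, the growth-cone proteins Basp1 and Marcksl1, cytoplasmic actin Actg1, the calmodulin gene Calm2, the reticulon Rtn1 and Tubb2a. Also among the 20 were the imprinted noncoding RNAs Rian and Meg3, the thymosin Tmsb10, the microtubule destabiliser Stmn1, Tpt1, the amyloid precursor gene App, Tubb5, the ribosomal RNA precursor Rn45s and Dpysl2, which acts in axon growth. Of these 20 genes 10 were also among the 20 highest per kilobase, where Tmsb4x (6258 CPM per kilobase) and 2900097C17Rik (5643) followed Tuba1a (14729). The 14 tubulin genes found in the table summed to 42617 CPM in control 1 and 39637 CPM in control 2. Tubulin genes are near-identical copies in part, and unique mapping may have moved counts among them. None of the 20 was called between the libraries, and only 0.281% of all genes with 1000 or more counts in all were. The ratio of Rn45s came nearest the fold threshold, with 2657 CPM in control 1 and 1785 CPM in control 2 (ratio 1.49, 95% counting interval 1.42 to 1.56).

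Of 18 pan-neuronal genes 17 were expressed, with a median of 476 CPM against 29.4 CPM over all tested genes. Per kilobase the highest were Gap43, a growth-cone protein of regrowing axons (1229), the microtubule regulators Stmn2 (727) and Stmn3 (452), and Mapt, which encodes tau (388). In CPM, Mapt had 1992 and 2088, Gap43 had 1775 and 1716, Map2, the microtubule protein of dendrites, had 1608 and 1586, and Stmn2 had 1339 and 1429. These genes lay close together in the 2 libraries, and the summed list was 11680 CPM in control 1 and 11852 CPM in control 2. The migrating-neuron marker Dcx had 740 and 795 CPM, and Rbfox3, the nuclear antigen of mature neurons, 48.1 and 54.0 CPM. Nefh, the heavy neurofilament subunit of mature large axons, had 13 and 6 counts (6.19 and 3.77 CPM) and was the 1 member under the threshold. Ina and Nefl, the other neurofilament partners, had 163 and 141 CPM, and 146 and 138 CPM.

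Of 14 motor neuron genes 4 were expressed, and the list's median was 1.54 CPM. The members over 5 CPM were Foxp1, a factor of limb motor columns that other neurons also express (69.5 and 60.3 CPM), the GDNF receptor parts Ret (7.14 and 13.8 CPM) and Gfra1 (7.14 and 8.17 CPM), and the peripheral filament Prph (6.67 and 9.42 CPM). None of these is restricted to motor neurons. Besides Mnx1, the LIM factors Lhx3 and Lhx4 and the vesicular acetylcholine transporter Slc18a3 had 0 counts in both libraries. Isl2 had 1 and 0 counts, the choline transporter Slc5a7 had 3 and 0, Aldh1a2 had 4 and 1, and Etv4 had 10 and 5. The list summed to 107 CPM in control 1 and 101 CPM in control 2, and Foxp1 made up most of it. The label of motor neurons therefore had little support in the counts of its defining genes, and the libraries are called empty-virus cultures here. The zeros among them do not show that these genes were silent, because Polr2a and Hnrnpa1 also had 0 counts in both libraries.

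Glutamatergic and inhibitory genes were expressed together. Slc17a6 was the only 1 of 3 vesicular glutamate transporters over the threshold in both libraries, at 93.2 CPM per kilobase. Slc17a7 had 0 counts, and Slc17a8 had 37 counts (17.6 CPM) in control 1 and 7 (4.40 CPM) in control 2, a called difference (log2 1.92, exact binomial adjusted p = 0.00482). Of 5 GABA and glycine genes 4 were expressed, among them Gad1 (54.9 CPM per kilobase), the vesicular transporter Slc32a1 (94.8 and 104 CPM, 35.6 per kilobase) and Gad2 (95.7 and 67.2 CPM). Slc6a5, the glycine transporter of glycinergic neurons, had 0 counts. Of 7 monoaminergic genes 0 were expressed, and the list summed to 4.76 and 0.628 CPM.

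Of 24 spinal interneuron factors 7 were expressed, at a median of 3.23 CPM. The highest in CPM were Pou4f1, a factor of dorsal interneurons and sensory neurons (54.8 and 49.6 CPM, 20.1 per kilobase), the inhibitory lineage factors Lhx5 (24.3 and 33.3 CPM) and Pax2 (13.3 and 16.3 CPM), and Tlx3, which selects a glutamatergic dorsal fate (15.7 and 20.7 CPM). The list summed to 175 and 176 CPM. The ventral and dorsal lineage factors Evx1, Evx2, Sox14, Lmx1b, Lbx1, Sim1 and Ptf1a had 0 counts, and En1 had 0 and 1. Of 10 sensory ganglion genes 1 was expressed, Runx1 (7.14 and 5.03 CPM), and Scn10a, Scn11a, Trpv1, Prdm12 and Avil had 0 counts, so Pou4f1 was not accompanied by the sensory neuron list.

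**Figure D4:**
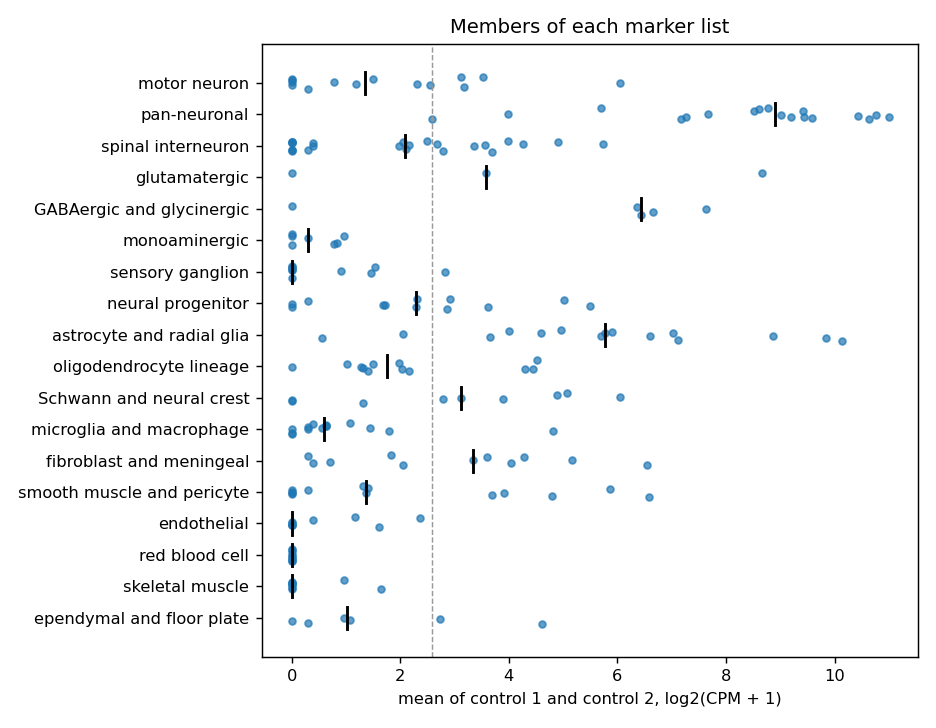
Each point is a gene of a cell type list, at the log2(CPM + 1) of its mean over control 1 and control 2. Black bars are list medians and the dashed line is 5 CPM. Pan-neuronal genes have the highest median (476 CPM), inhibitory genes (85.1 CPM) and astrocyte and radial glia genes (53.8 CPM) come next, and red cell, skeletal muscle, endothelial and sensory ganglion lists have medians of 0.

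Hox genes are switched on along the body axis in the order of their clusters, and the cultures expressed most of them. Of 39 Hox genes 25 were expressed, and the list summed to 3705 CPM in control 1 and 3539 CPM in control 2. Hoxb8 alone had 1554 and 1420 CPM (562 per kilobase), or 41.9% and 40.1% of the Hox sum. In CPM it was followed by Hoxb9 (306 and 342 CPM, 126 per kilobase), Hoxa5 (261 and 236 CPM, 132 per kilobase) and Hoxb6 (205 and 226 CPM, 110 per kilobase). Exons of Hoxb8 and Hoxb7 overlap in the annotation, so reads of that pair may be mixed. Genes of paralog groups 2 to 10 were expressed, with summed levels of 145 CPM or more per group in each library. Group 11 summed to 11.9 and 13.8 CPM, group 12 had 0 counts, and group 13 summed to 7.62 and 3.77 CPM. Group 1, which is used in the hindbrain, summed to 0.953 and 1.88 CPM. The Hoxb cluster summed to 2694 and 2594 CPM, Hoxa to 532 and 469, Hoxc to 362 and 349 and Hoxd to 118 and 128. Of 13 genes of forebrain and hindbrain regions 2 were expressed, Neurod6 (78.1 and 75.4 CPM) and Gbx2 (27.6 and 20.7 CPM). The forebrain factors Emx1, Dlx2 and Dlx5 had 0 counts. The 4 highest Hox genes differed by less than 1.5-fold between the libraries. Of 29 tested Hox genes 2 (6.90%) were called, close to the 6.82% over all genes. They were Hoxa3 and Hoxa7, both higher in control 1 (log2 0.80 and 0.65, exact binomial adjusted p = 0.00370 and 0.0301).

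**Figure D5:**
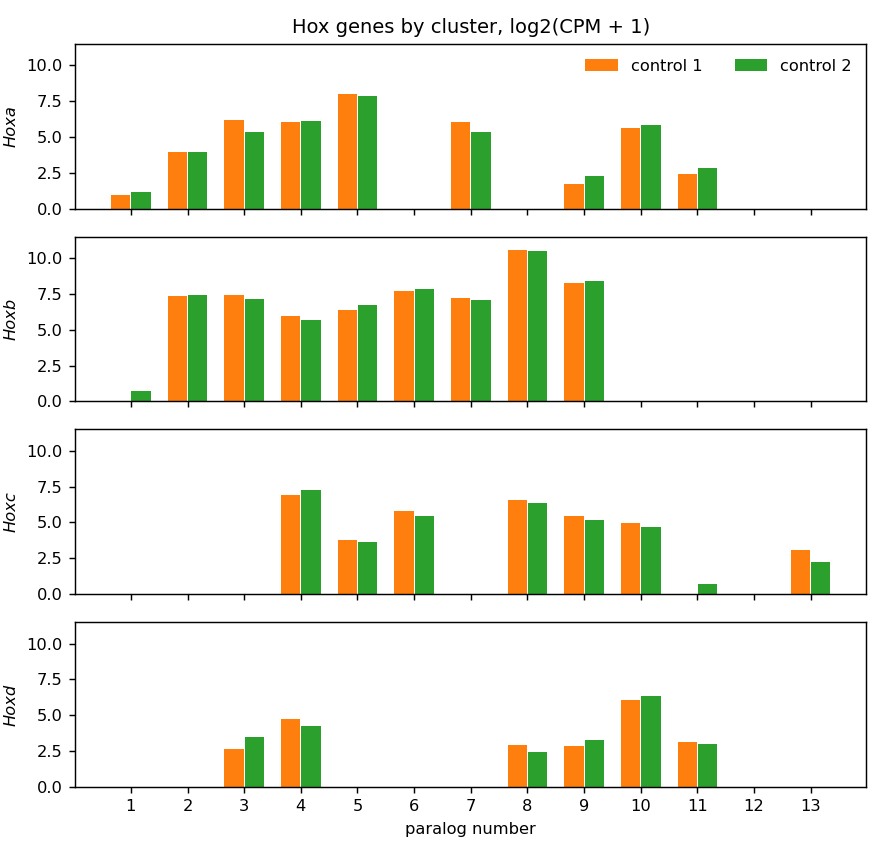
Hox genes by cluster (rows) and paralog number (horizontal), as log2(CPM + 1) in control 1 (left bar) and control 2. Gaps are genes at 0 counts or places where a cluster has no gene. Hoxb8 is the highest bar in both libraries, and groups 11 to 13 are low or empty.

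Of 15 astrocyte and radial glia genes 13 were expressed, with a median of 53.8 CPM, and the list summed to 3284 CPM in control 1 and 2938 CPM in control 2. After Fabp7 (1279 CPM per kilobase) and Vim (415), the highest in CPM were the glutamate transporter Slc1a2 (452 and 477 CPM) and the matrix protein Tnc (151 and 124 CPM). The members under the threshold were Gfap, the astrocyte filament gene, with 8 and 4 counts, and S100b, with 2 and 0. Other astrocyte genes were higher, such as Glul, which makes glutamine (131 and 126 CPM), the glutamate transporter Slc1a3 (89.1 and 103 CPM) and the water channel Aqp4 (22.9 and 37.1 CPM). Fabp7 and Vim were each 1.18 times higher in control 1 (exact binomial adjusted p = 3.07e-05 and 0.000239), as was Nefm by 1.29 times (adjusted p = 0.000215), all under the 1.5-fold threshold. Of 12 neural progenitor genes 3 were expressed: Nes, the progenitor filament (48.1 and 40.2 CPM), the stem cell factor Sox2 (44.8 and 18.2 CPM) and the Notch target Hes5 (11.9 and 10.7 CPM). Sox2 was called higher in control 1 (log2 1.28, exact binomial adjusted p = 0.000576). The motor neuron progenitor factor Nkx6-1 and the neurogenic factor Neurog1 had 0 counts.

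Genes of other cell types were detected at summed levels below that of the astrocyte and radial glia list. Smooth muscle and pericyte genes summed to 206 CPM in control 1 and 212 CPM in control 2. Fibroblast genes summed to 198 and 178 CPM, and Schwann and neural crest genes to 163 and 147 CPM. The motor neuron sum was 107 and 101 CPM. The lists differ in size and a few members led each sum, so these sums do not rank cell types. Of 12 oligodendrocyte lineage genes 3 were expressed, among them the lineage factor Olig1 (26.2 and 17.6 CPM) and the myelin gene Mbp (27.1 and 14.4 CPM), while Mog had 0 counts. Among 9 Schwann and neural crest genes, Ednrb (69.5 and 60.9 CPM), Pmp22 (37.1 and 27.6 CPM) and Ngfr (28.6 and 28.3 CPM) were the highest. Erbb3 and Cdh19 had 0 counts, and Sox10 had 1 and 4. Egr2, a factor of myelinating Schwann cells that neuronal activity also induces, was called lower in control 1, with 7 counts, against 19 in control 2 (log2 -1.78, exact binomial adjusted p = 0.0293). Of 11 fibroblast and meningeal genes 6 were expressed, led by fibronectin Fn1 (95.7 and 88.0 CPM) and collagen Col1a1 (31.4 and 38.3 CPM). Of 13 smooth muscle and pericyte genes 5 were expressed, Acta2, the actin-binding Tagln (57.2 and 56.5 CPM), the receptor Notch3 (26.7 and 27.0 CPM), Cnn1 (10.95 and 16.96 CPM) and Myl9 (13.8 and 10.1 CPM). The mature contractile gene Myh11, Des, Kcnj8 and Abcc9 had 0 counts. Cx3cr1, the fractalkine receptor of microglia, was the only expressed member of 14 microglia and macrophage genes (28.6 and 25.8 CPM), while Csf1r, P2ry12 and Tmem119 had 0 counts and Aif1 had 2 and 4. Of 9 endothelial and 9 skeletal muscle genes 0 were expressed in each list, and the 9 red cell genes found had 0 counts. Of 6 ependymal and floor plate genes 2 were expressed, the ciliary factor Foxj1 (6.19 and 5.03 CPM) and Shh, a secreted floor plate signal. Shh had 14.8 CPM in control 1 and 32.0 CPM in control 2, a called difference (log2 -1.11, exact binomial adjusted p = 0.0126).

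The cultures expressed the genes of synaptic release and of transmitter reception. Of 28 synaptic vesicle and release genes 24 were expressed (median 74.4 CPM), led by the vesicle GTPase Rab3a (747 and 879 CPM, 522 per kilobase), Syt4 (842 and 767 CPM) and, further down, Snap25, which takes part in vesicle fusion (639 and 530 CPM). Of 22 glutamate receptor genes 17 were expressed. The AMPA receptor subunit Gria2 had 1639 and 1625 CPM (235 per kilobase), the metabotropic receptor Grm5 702 and 700 CPM (102 per kilobase), and the AMPA subunit Gria1 248 and 286 CPM (48.2 per kilobase). The NMDA subunit genes were lower than these, with Grin1, the obligatory subunit, at 19 and 20 counts (9.05 and 12.6 CPM), Grin2b at 36.7 and 35.2 CPM, and Grin2a and Grin2d at 0. Grin3a was the highest listed NMDA gene in CPM and was lower in control 1 (52.4 CPM, against 87.3 CPM in control 2, log2 -0.74, exact binomial adjusted p = 0.00235). Grik2 was called the other way, with 73.8 CPM in control 1 and 41.5 CPM in control 2 (log2 0.83, exact binomial adjusted p = 0.00206). Of 19 GABA and glycine receptor genes 13 were expressed, with Gabra3 (207 and 232 CPM, 59.9 per kilobase) and Gabbr1 (289 and 316 CPM, 57.6 per kilobase) highest per kilobase. The glycine receptor subunits Glrb and Glra2 had 100 and 77.9 CPM, and 76.2 and 71.6 CPM, while Glra1, the subunit of mature cord, had 0 counts. Of 13 tested genes of this list 2 were called higher in control 1 and 0 lower, against 3.81% and 3.01% of all genes. These counts are too small to set the list apart. Of 19 acetylcholine receptor genes 2 were expressed, Chrna4 (24.3 and 27.6 CPM) and Chrnb2 (8.57 and 9.42 CPM), and 9 had 0 counts. Chrna3 was called higher in control 1, with 17 counts, against 2 in control 2.

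Of 23 sodium and calcium channel genes 17 were expressed, led in CPM by the sodium channel gene Scn2a1 (321 and 379 CPM, 39.6 per kilobase), the calcium channel subunit Cacna2d1 (308 and 317 CPM, 41.8 per kilobase) and the sodium channel gene Scn3a (249 and 254 CPM, 26.3 per kilobase). Scn8a, the sodium channel of mature axons, had 146 and 97.4 CPM. Of 34 potassium channel genes 23 were expressed, with the A-type channels Kcnd2 (135 and 126 CPM, 25.3 per kilobase) and Kcnd3 (111 and 134 CPM, 17.1 per kilobase), Kcnc1 (57.6 and 79.8 CPM) and Kcna2 (51.0 and 57.2 CPM) highest in CPM. Of 26 tested potassium channel genes 1 was called higher and 2 lower in control 1, against 3.81% and 3.01% of all genes. Kcna5 was higher, with 8.10 CPM in control 1 and 1.26 CPM in control 2 (log2 2.41, exact binomial adjusted p = 0.0413), and Kcnh1 was among the lower ones, with 27.1 CPM in control 1 and 46.5 CPM in control 2 (log2 -0.77, adjusted p = 0.0298). Of 24 genes on the neuropeptide list, which also holds granins and Nrn1, 19 were expressed, the highest at a mean of 377 CPM. Sst, the somatostatin precursor gene, had 191 and 198 CPM. It was not the highest in CPM but led per kilobase (325), ahead of Nrn1 (157), the granins Scg2 (152) and Chgb (111), and Cck (100.3). The opioid precursor Pdyn had 0 counts. Of 20 tested genes of this list 0 were called, against 6.82% of all genes, a count too small to set them apart.

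Of 16 trophic receptor genes 13 were expressed. Ncam1, an adhesion molecule that also binds GDNF, had 1804 and 1912 CPM, and the receptors Ntrk2 for BDNF and Ntrk3 for neurotrophin-3 had 101 and 133 CPM, and 94.8 and 96.1 CPM. The CNTF receptor parts Cntfr, Lifr and Il6st, which serve a factor given in the medium, had 12.4 and 21.4 CPM, 28.1 and 45.9 CPM, and 27.6 and 33.3 CPM. Cntfr, Lifr and Il6st, like Ret and Gfra1, were detected in both libraries at levels far below that of Ncam1.

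Genes of DNA replication and division were detected in cultures given a blocker of division. Of 20 proliferation genes 17 were expressed (median 23.8 CPM), led by the replication clamp Pcna (87.6 and 76.6 CPM), Ccnd1 (77.2 and 79.2 CPM), the ribonucleotide reductase subunit Rrm2 (75.7 and 50.3 CPM) and the helicase subunit Mcm6 (55.2 and 54.0 CPM). Tyms, the enzyme that fluorodeoxyuridine inhibits, had 16.2 and 16.3 CPM. Birc5 and Rrm2 were called higher in control 1 (log2 1.10 and 0.59, exact binomial adjusted p = 0.0194 and 0.0299). Of 14 p53 and cell death genes 12 were expressed, with Ccng1 (244 and 187 CPM), the pore-forming Bax (234 and 192 CPM, 203 per kilobase), Trp53inp1 (96.2 and 71.0 CPM) and Pmaip1 (76.7 and 81.0 CPM) highest. Fas and Bbc3, both p53 targets that promote death, were higher in control 1 (log2 0.95 and 0.59, exact binomial adjusted p = 0.0225 and 0.0323).

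Of 17 interferon genes 8 were expressed, with a median of 3.00 CPM. Among the highest were Isg15 (30.5 and 38.3 CPM), Stat2 (26.2 and 19.5 CPM) and Ifit1 (13.3 and 15.7 CPM), and Oas1a and Oas2 had 0 counts. Mx1 had 11 counts in control 1 and 0 in control 2 (exact binomial adjusted p = 0.0366). Of 14 activity genes 9 were expressed, led by Fos (271 CPM in each library) and Fosl2 (201 and 197 CPM), with Egr1 (70.5 and 73.5 CPM) and Bdnf (80.0 and 55.9 CPM) next, and Egr3 at 0. Of 15 stress genes 14 were expressed, and the chaperones Hspa5 (1128 and 1185 CPM), Hsp90aa1 (950.1 and 845 CPM), Hspa8 (828 and 920.3 CPM) and Hsp90b1 (676 and 655 CPM) were highest in CPM. Ddit3, a death-promoting factor of the unfolded protein response, had 28.1 and 37.7 CPM, and Trib3 had 2 and 0 counts. The Y-linked Ddx3y had 73.8 and 63.4 CPM, so RNA of male embryos was present in each library. Xist, expressed from the inactive X chromosome of females, had 73.8 and 79.2 CPM. Exons of Xist overlap Tsix on the other strand and the strand setting is not given. The presence of female RNA therefore rests on reads that may be mixed.

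The microRNA of the series left reads over 1 of its 2 precursors. miR-218-5p is cut from Mir218-1 and Mir218-2, and its bases 2 to 8, the seed that pairs with target RNAs, are in capitals below, with the 3p strands of both precursors and the other microRNAs counted at 10 or more reads in each library (RefSeq, GRCm38.p6, 5′ to 3′).
miR-218-5p: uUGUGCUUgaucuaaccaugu
miR-218-1-3p: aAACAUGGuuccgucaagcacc
miR-218-2-3p: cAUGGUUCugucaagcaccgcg
miR-682: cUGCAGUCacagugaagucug
miR-703: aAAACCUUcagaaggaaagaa
The precursors give the same 5p strand and 3p strands that differ, and none of the seeds shown is shared between different microRNAs. Mir218-1 had 107 counts in control 1 and 81 in control 2, or 51.0 CPM (exact 95% Poisson interval 41.8 to 61.6) and 50.9 CPM (40.4 to 63.2), a ratio of 1.00. It lies at chr5:48615181-48615290 (mm9, plus strand) in an intron of Slit2 (chr5:48374394-48697521), overlapping no exon of another gene. Mir218-2, at chr11:35430318-35430427 (mm9, plus strand) inside Slit3, had 0 counts. These are reads over the precursor region and do not measure mature miR-218. The part of unspliced Slit2 RNA in them was not tested. Slit2, a secreted axon repellent, had 49.1 and 64.1 CPM, Slit3 had 13.3 and 12.6 CPM, and the receptors Robo2 and Robo1 had 159 and 153 CPM, and 51.0 and 40.2 CPM.

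Of 624 microRNA entries 601 had 0 counts and 4 had 10 or more counts in each library: Mir218-1, the host transcript Mir22hg, Mir703 and Mir682. Mir703 had 133 and 109 CPM, and Mir682 26.7 and 25.8 CPM. Mir682 overlaps exons of Gm4149 on the same strand, so its reads cannot be assigned to a microRNA. Positions of Mir703 and Mir22hg were not found under these symbols, so their overlap with other genes was not checked. Of 15 microRNA machinery genes found, 13 were expressed, with Tnrc6a (268 and 264 CPM), Tnrc6b (122 and 139 CPM), Prkra (109 and 111 CPM) and Tnrc6c (83.8 and 109 CPM) highest in CPM, and the nuclease genes Drosha (59.1 and 67.2 CPM) and Dicer1 (32.4 and 38.3 CPM) lower. Lin28a, a blocker of let-7 in stem cells, had 0 counts. The listed genes Ago1, Ago2, Ago3 and Ago4 were not found under these symbols, so their levels were not read.

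The files' table held 25 ALS genes, and 21 of them were expressed, with a median of 132 CPM. The highest in CPM were the RNA-binding Hnrnpa2b1 (1479 and 1397 CPM), the autophagy receptor Sqstm1 (837 and 843 CPM) and superoxide dismutase Sod1 (751 and 805 CPM, the highest per kilobase at 1205). Tardbp, which encodes TDP-43, had 349 and 347 CPM, and the mouse counterpart of C9orf72, 3110043O21Rik, had 44.8 and 60.3 CPM. Ang, Nek1 and Hnrnpa1 had 0 counts. Optn, another autophagy receptor, was lower in control 1 (11.9 CPM, against 25.8 CPM in control 2, log2 -1.10, exact binomial adjusted p = 0.0298).

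Over all lists together, 14 of 387 tested genes were higher in control 1 (3.62%, against 3.81% of all genes) and 6 were lower (1.55%, against 3.01%). Among called genes with 50 or more counts in the 2 libraries together, the 8 with the highest ratio in control 1 were the DNA repair gene Fancg (24.8 CPM in control 1 and 3.77 CPM in control 2), Slc22a21, the centrosome gene Nin, A230050P20Rik, Cep78, Ubxn2b, Npat, which drives histone transcription, and Mcph1. Their log2 ratios ran from 1.83 (Mcph1) to 2.61 (Fancg). The 8 with the lowest ratio included 2810032G03Rik (7.62 CPM in control 1 and 37.1 CPM in control 2), Fam110b, the phosphatase Ptprt, Tab1, Erlin1, Dclre1b and 2410127L17Rik, with log2 ratios from -2.25 to -1.61. For Fancg, with 52 and 6 counts, the 95% counting interval of the ratio ran from 2.82 to 18.7. All 16 had 140 counts or fewer in the 2 libraries together and were picked for their size, so these ratios are a description of low genes.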

How the data were processed

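RNA of 2 empty-virus cultures was analysed. Per the labels' protocols the authors sequenced reads of 50 bases on 1 lane, made base calls with CASAVA 1.8.2, mapped reads with TopHat2 2.0.10 to mm9 and counted unique reads per gene with HTSeq-count 0.6.1p1; the sources used here do not give their annotation or strand setting. The deposited raw count columns of the controls were used as they stand, and 12 other columns of per-library values were not used. Counts were scaled to CPM by library totals (Python 3.11.15, SciPy 1.17.1). Libraries were compared with a two-sided exact conditional binomial test on genes with 10 or more counts in all, with Benjamini-Hochberg adjustment, called at adjusted p under 0.05 and a fold over 1.5; log2 ratios have 0.5 counts added. The test was run on simulated counts with counting error only, which does not cover the wider spread between these libraries. edgeR 4.0.16 and DESeq2 1.42.0 (R 4.3.3) gave other scalings and the dispersion. Lengths came from GENCODE on NCBIM37, which is mm9, by symbol or, for 772 genes, an older symbol. Of 576 listed genes 106 had exons overlapping another gene on the other strand. Genes named are the 9 markers, the 20 most abundant, up to 4 per list by CPM, members at 0, and the 8 most different each way; others were named for their role with values known. Members and lists were chosen with earlier results of these data known, and the housekeeping and imprinted sets after the values were seen. Some genes that this rule selects are not reported here.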

Additional observations from a re-analysis of the deposited data

How the results depend on the processing

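The number of expressed genes was 11992 at 1 CPM and 8395 at 10 CPM, 9710 with TMM scaling and 9824 with DESeq2 size factors, and 10412 in control 1 alone and 10412 in control 2 alone. The binomial test called 788 genes with TMM scaling, 785 with DESeq2 size factors, 737 with no filter on counts and 587 with a filter of 50 counts. The number moved to 1268 with the adjusted p alone, and to 424 with a fold over 2, because these change the rule itself. Of the 20 most abundant genes 10 were shared with the ranking per kilobase, and 20 and 19 with control 1 alone and control 2 alone. The correlation between the libraries lay between 0.944 and 0.969 over other pseudocounts and filters. The summed level of each gene list with counts moved by less than the SD of the libraries in 152 of 152 other settings, which holds by construction where 1 of the 2 libraries was left out. The 16 most different named genes were picked for their size, so their calls could not be lost under these settings and say nothing about stability. No paired analysis was possible because 1 group of libraries was described and the test compares its 2 members. By counting error alone 0 counts allow up to 1.43 CPM in control 1 and 1.88 CPM in control 2, and this limit does not cover genes whose reads were not counted, such as those with near-identical copies.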

Other observations

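Imprinted genes, which are read from the allele of 1 parent, took a visible share of the counts. Of 24 such genes, picked after the values were seen, 20 were expressed, and they summed to 11358 CPM in control 1 and 11923 CPM in control 2. Meg3 (2835 and 2613 CPM), Rian (2600 and 3185 CPM) and Mirg (87.2 and 81.7 CPM) are noncoding RNAs of the Dlk1 region, while Dlk1 itself had 36.7 CPM in control 1 and 61.6 CPM in control 2 (log2 -0.75, exact binomial adjusted p = 0.0128). The neuronal Nnat had 1143 and 1298 CPM and was the highest of the set per kilobase (843), ahead of Rian (551), Ndn (496) and Gnas (476). Snrpn, a gene of neuronal splicing, had 0 counts, and its neighbour Ndn had 837 and 803 CPM.

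A few noncoding RNAs were read singly, picked after the values were seen. Malat1, which stays in the nucleus, had 1385 CPM in control 1 and 792 CPM in control 2 (ratio 1.75, 95% counting interval 1.64 to 1.87). Neat1 had 32 and 10 counts and did not pass the test (log2 1.23, exact binomial adjusted p = 0.0837). Miat had 143 CPM in control 1 and 190 CPM in control 2 (log2 -0.40, exact binomial adjusted p = 0.0116, under the fold threshold), and Kcnq1ot1 had 777 and 741 CPM (log2 0.07, adjusted p = 0.461). Snhg11 had 148 and 134 CPM (log2 0.15, adjusted p = 0.536).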
